A study of Homo sapiens with 6 samples.

Results

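The 10 trophectoderm genes GATA2, GATA3, CDX2, TEAD4, VGLL1, ELF5, HAND1, KRT7, KRT8 and KRT18 were followed by bulk RNA-seq across 4 naive and 2 primed libraries of human embryonic stem cells. Members were the genes whose name in the deposited count table is on this list, and all 10 were found, each under 1 identifier, among 48183 gene names in 6 libraries. The cells carried the EOS-GFP reporter, a fluorescent reporter of the naive state, in the line that the sample labels name H1 and the study's methods name H9. Naive cells were made from the EOS line with AICAR, a chemical activator of AMPK (2 libraries, 14 days of induction, then 14 or 15 passages, with no statement of which library is which). They were also made from the EOS line with valproic acid (VPA), an inhibitor of histone deacetylases (1 library, 9 days, 12 passages). The third method switched on CA-p38, a constitutively active p38 kinase, with doxycycline in the CA-p38 EOS line, which carries the transgene (1 library, 7 days, 12 passages). These 7 days are the day count of the protocol, and the paper describes a shorter doxycycline treatment. By the paper, AICAR and doxycycline were later withdrawn, and the naive cells were expanded without them. The primed libraries were the parental EOS and CA-p38 EOS lines without naive induction (1 library each). The transgene was thus present in both libraries of the CA-p38 line and in neither state of the EOS line. When the CA-p38 line was made, its cells were given doxycycline and sorted for mCherry, a fluorescent protein carried with the transgene. By the study's methods, naive cells were kept in PXGL medium on mouse embryonic fibroblast feeders and sorted for CD75 and SUSD2. Primed cells were grown on Matrigel in StemFit AK02N and not sorted for these markers. The paper also describes a later move of CA-p38 cells to feeder-free PXGL, and whether the CA-p38 naive library came from feeders is not stated. State therefore cannot be told apart from medium, feeders and sorting. The library names below give the induction method for naive cells and the parental line for primed cells.

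Trophectoderm is the outer layer of the blastocyst and the source of all trophoblast of the placenta. In the embryo, TEAD4 with its coactivators YAP1 and WWTR1 acts early in outer cells, GATA2, GATA3 and CDX2 are transcription factors of the layer that forms, and KRT7, KRT8 and KRT18 are the intermediate filament proteins of its epithelium. Naive pluripotent cells resemble the preimplantation epiblast and can give rise to trophectoderm in culture, whereas primed cells resemble a later epiblast.

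Total counts per library ran from 46823699 (AICAR 2) to 54277064 (AICAR 1). The limit used for a count of 0, 3 counts, thus corresponds to 0.0553 to 0.0641 CPM, the counts scaled to a common library size. The summed level of 6 naive state genes was 2932 to 3427 CPM in the naive libraries and 3.27 to 5.92 CPM in the primed libraries. SUSD2 is 1 of these 6 and was a sorting marker of the naive cells, so its high level there was selected for. The 5 primed state genes summed to 40.5 to 54.6 CPM in the naive and 2113 to 2601 CPM in the primed libraries. All CPM values below are scaled by the trimmed mean of M-values (TMM). Nothing in the sources says that the libraries came from separate cultures, so the p-values measure only the spread between these 6 libraries. In bulk RNA, more cells of a type and more RNA per cell cannot be told apart.

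GATA2, CDX2, HAND1, TEAD4 and KRT7 were higher in the naive libraries, and KRT8 and KRT18 were lower. GATA3 and ELF5 were tested and did not pass, and VGLL1 had too few counts to be tested. Over all genes tested, edgeR's quasi-likelihood test called 53.1% of 26497 at an adjusted p under 0.05, or 26.01% as higher and 27.04% as lower in naive libraries. Beside this stand 5 higher and 2 lower of the 9 members tested. In the same 5 members every naive library lay above both primed libraries, and in KRT8 and KRT18 every naive library lay below both. Over all genes tested, 32.9% had every naive library above and 32.1% every naive library below. The median log2 fold change was 0.88 over the 9 members and 0.11 over all genes. With 9 members tested these counts are a description without a test, and the members are described one by one.

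**Figure D1:**
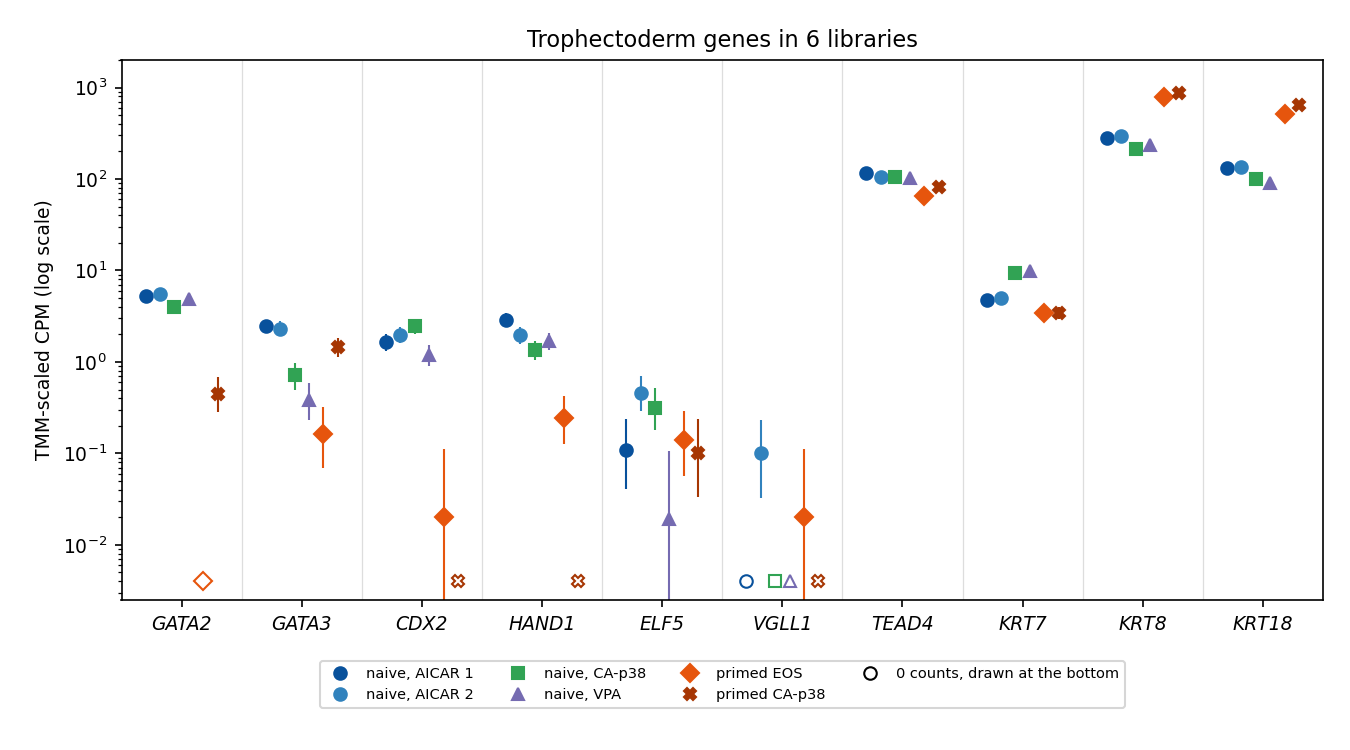
TMM-scaled CPM on a log axis for the 10 trophectoderm genes, with a symbol for each of the 4 naive and 2 primed libraries, exact Poisson 95% intervals of the counts as bars (cut where they leave the axis), and open symbols at the bottom for libraries with 0 counts. GATA2, CDX2 and HAND1 lay between 1.18 and 5.48 CPM in the naive libraries and at or below 0.450 CPM in the primed ones, whereas KRT8 and KRT18 were above 500 CPM only in the primed libraries.

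The sequences upstream of GATA2, CDX2 and HAND1 are shown because these were the members with the largest differences between the states. Each is the 250 bases before the RefSeq transcription start on GRCh38.p14, written 5′ to 3′ on the gene's own strand. All 3 genes lie on the minus strand, at chr3:128493202-128493451, chr13:27969316-27969565 and chr5:154478228-154478477, and their starts match the GENCODE gene starts. Capitals mark matches, on either strand, to a searched motif. The motifs were those of AP-2 factors (GCCNNNGGC), GATA factors (AGATAA), the TATA box (TATAAA), TEAD factors (CATTCC) and POU factors, the octamer (ATGCAAAT). The 3 windows read as follows.
GATA2: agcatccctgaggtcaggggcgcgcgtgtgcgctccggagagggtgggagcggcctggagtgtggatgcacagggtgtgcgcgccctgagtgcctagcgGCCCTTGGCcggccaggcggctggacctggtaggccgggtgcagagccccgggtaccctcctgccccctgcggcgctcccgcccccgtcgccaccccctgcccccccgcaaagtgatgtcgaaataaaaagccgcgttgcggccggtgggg
CDX2: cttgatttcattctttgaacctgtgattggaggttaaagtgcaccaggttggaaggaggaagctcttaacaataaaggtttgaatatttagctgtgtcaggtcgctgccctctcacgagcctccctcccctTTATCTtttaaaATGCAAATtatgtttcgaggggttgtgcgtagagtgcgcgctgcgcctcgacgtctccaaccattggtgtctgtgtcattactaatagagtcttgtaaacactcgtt
HAND1: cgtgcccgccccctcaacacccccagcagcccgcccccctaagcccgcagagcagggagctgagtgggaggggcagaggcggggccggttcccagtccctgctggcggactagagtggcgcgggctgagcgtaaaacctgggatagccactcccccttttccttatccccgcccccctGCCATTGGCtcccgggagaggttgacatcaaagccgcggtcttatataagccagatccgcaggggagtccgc
The capitals in GATA2 and HAND1 are AP-2 matches that begin 151 and 72 bases before the start. Those in CDX2 are a GATA match, 119 bases before the start, and an octamer match, 107 bases before it. Of 34943 RefSeq promoters of the same length, 19.7% held the AP-2 motif, 9.19% the GATA motif, 11.9% the TEAD motif, 1.63% the octamer and 10.8% the TATA motif. RefSeq entries were found for 7 of the 10 members, with 13 windows in all since GATA2 and GATA3 have several starts. The AP-2 motif was in 6 of these windows, in GATA2, GATA3 and HAND1, and the TEAD motif in 2, in GATA3 and VGLL1. A match is a description of letters and not a measurement of binding.

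GATA2 encodes a zinc-finger transcription factor of trophectoderm and trophoblast, and also of blood and endothelium. It lies on GRCh38 at chr3:128479427-128493201 on the minus strand. Its counts were 289 and 272 in the AICAR libraries, 204 in CA-p38 and 257 in VPA. Primed EOS had none and primed CA-p38 had 22. This corresponded to 5.32, 5.48, 4.04 and 4.91 CPM in the naive libraries and to 0 and 0.450 CPM in the primed ones. The naive libraries were close to one another and above both primed libraries, which differed from each other. Naive cells had a mean of 4.94 ± 0.645 CPM (SD, n = 4) and primed cells one of 0.225 ± 0.318 CPM (SD, n = 2), with a log2 fold change of 4.45 ± 0.71 (SE) and an adjusted p of 0.000162 by edgeR's quasi-likelihood test. The size of the change rested on the primed library. Against primed CA-p38 alone the log2 fold change was 3.44, and against primed EOS alone, with 0 counts set at 3, even the lowest naive level was at least 66.6-fold higher. The antisense gene GATA2-AS1 overlaps GATA2 over 3990 bases. It had 20, 11, 9 and 65 counts in the AICAR 1, AICAR 2, CA-p38 and VPA libraries and 2 and 0 in primed EOS and primed CA-p38. Whether the counting used strand is not given in the sources used here, so reads of the 2 genes could have been mixed.

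GATA3, the other GATA factor of trophectoderm (chr10:8045378-8075198, plus strand), did not follow the states. Its counts were 133 and 115 in the AICAR libraries, 36 in CA-p38 and 20 in VPA. Primed EOS had 8 and primed CA-p38 had 71. The levels were 2.45, 2.31, 0.713 and 0.382 CPM in the naive libraries and 0.162 and 1.45 CPM in the primed ones. Both AICAR libraries were highest, primed CA-p38 came next, above the CA-p38 and VPA naive libraries, and primed EOS was lowest, so the states overlapped. The log2 fold change was 0.86 ± 0.81 (SE) and did not pass (adjusted p = 0.393, edgeR's quasi-likelihood test). Without primed CA-p38 it was 3.17 and passed (adjusted p = 0.0374, edgeR's quasi-likelihood test). Without primed EOS it was 0.00 (adjusted p = 0.9997, edgeR's quasi-likelihood test). Against the parental line, on log2(CPM + 0.5), the 3 naive libraries of the EOS line were higher by 0.41 to 2.16, whereas the naive library of the CA-p38 line changed by -0.69.

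The rest of the family was read beside these members. Of 6 GATA genes, 5 were tested, 3 were higher (GATA2, GATA4 and GATA5), none was lower, and GATA3 and GATA6 did not pass. GATA4, a factor of heart and endoderm, was at 7.53 to 13.5 CPM in the naive libraries and at 0 and 0.941 CPM in primed EOS and primed CA-p38 (log2 fold change 4.51 ± 0.74 (SE), adjusted p = 0.000202, edgeR's quasi-likelihood test). GATA5, its close relative, was at 5.30 to 9.17 CPM in the naive libraries and had 0 counts in both primed libraries, a mean at least 105-fold higher when each primed library is set at 3 counts. GATA6, a factor of hypoblast and endoderm, was at 3.06 and 2.72 CPM in the AICAR libraries, 1.33 CPM in CA-p38 and 0.955 CPM in VPA. Primed EOS stood at 0.465 CPM and primed CA-p38 at 3.29 CPM. The naive libraries thus had the order seen for GATA3, with primed CA-p38 again far above primed EOS. Without primed CA-p38, all 5 tested GATA genes were called higher. Per kb of transcript, the naive means of GATA4 (3.14 CPM per kb) and GATA5 (2.45 CPM per kb) were above that of GATA2 (1.46 CPM per kb), and those of GATA6 (0.556 CPM per kb) and GATA3 (0.475 CPM per kb) below it.

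The primed CA-p38 library also had more counts of endoderm and mesendoderm regulators than primed EOS. FOXA2 was at 21.4 against 5.36 CPM, SOX17 at 4.87 against 1.56 CPM and EOMES at 7.42 against 1.21 CPM. The naive libraries were lower than both in FOXA2 (0.416 to 1.19 CPM) and in SOX17 (0.201 to 0.376 CPM). The 8 endoderm and hypoblast markers summed to 18.3 to 19.5 CPM in the naive libraries, 10.8 CPM in the EOS and 39.2 CPM in the CA-p38 primed library, with GATA4 at 0 in primed EOS. The part of such transcripts in the GATA2 and GATA3 values of primed CA-p38 was not tested. EOMES is shown here because its difference between the primed libraries had been seen.

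**Figure D2:**
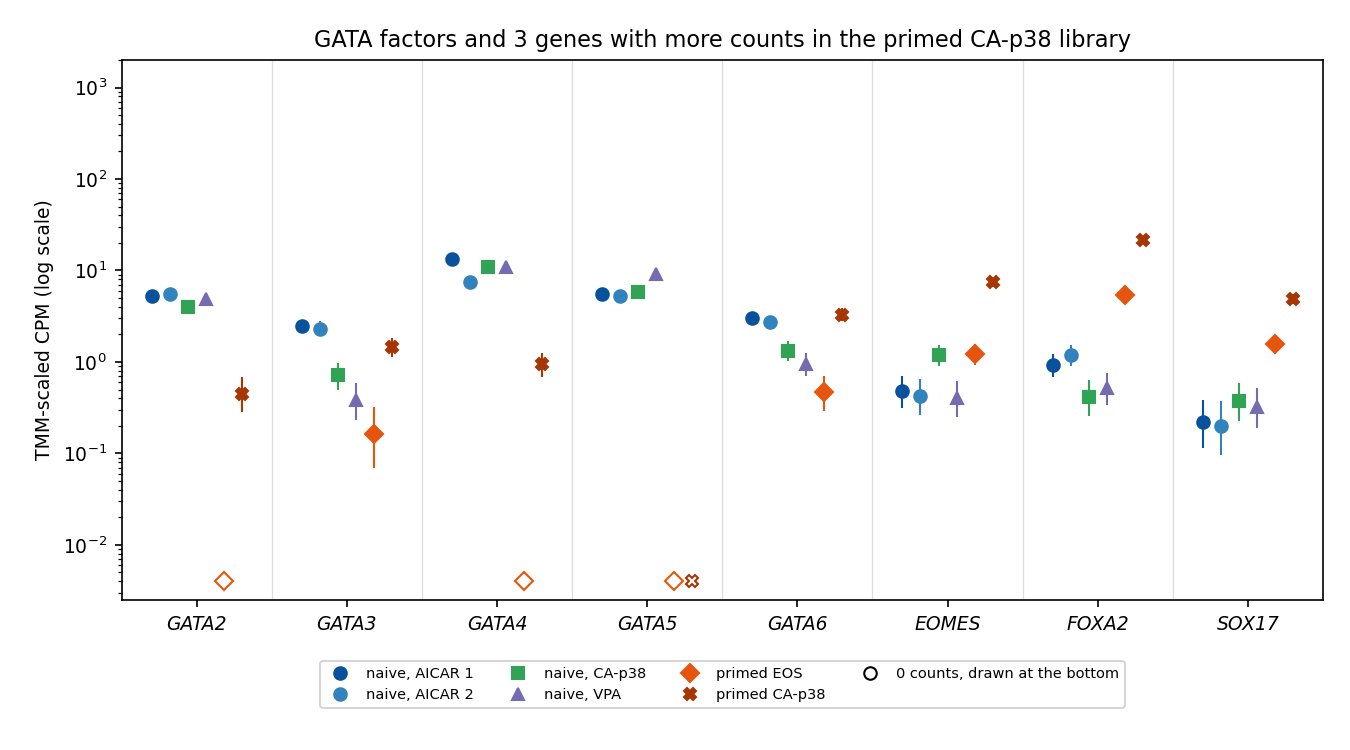
TMM-scaled CPM on a log axis for 5 GATA factors and for EOMES, FOXA2 and SOX17, with the same symbols, exact Poisson 95% intervals and open symbols for 0 counts. GATA2, GATA4 and GATA5 separated naive from primed libraries. GATA3 in primed CA-p38 (1.45 CPM) lay within the range of the naive libraries, and GATA6 (3.29 CPM), EOMES, FOXA2 and SOX17 were highest in primed CA-p38.

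CDX2, a homeodomain factor of trophectoderm and later of the gut, is at chr13:27960918-27969315 on the minus strand, with the upstream sequence printed above. It had 90, 98, 124 and 62 counts in the AICAR 1, AICAR 2, CA-p38 and VPA libraries, and 1 and 0 counts in primed EOS and primed CA-p38. In CPM these were 1.66, 1.97, 2.45 and 1.18 in the naive libraries and 0.0202 and 0 in the primed ones. Every naive library thus had CDX2 counts, whereas both primed libraries were at or below the limit of 3 counts. With the primed level set at that limit, the naive mean of 1.82 ± 0.534 CPM (SD, n = 4) was at least 29.6-fold higher and the lowest naive library at least 19.3-fold higher. The difference passed (adjusted p = 5.77e-06, edgeR's quasi-likelihood test). CDX1, the paralog best known from the intestine, behaved alike, at 1.56 to 2.90 CPM in the naive libraries and 0 and 0.123 CPM in primed EOS and primed CA-p38 (log2 fold change 5.01 ± 0.73 (SE), adjusted p = 7.71e-05, edgeR's quasi-likelihood test). CDX4 had too few counts to be tested.

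HAND1 encodes a basic helix-loop-helix factor of trophoblast, extraembryonic mesoderm and heart (chr5:154474972-154478227, minus strand). Its counts were 158, 97, 68 and 89 in the AICAR 1, AICAR 2, CA-p38 and VPA libraries and 12 and 0 in primed EOS and primed CA-p38. The levels were 2.91, 1.95, 1.35 and 1.70 CPM in the naive libraries, and 0.243 and 0 CPM in the primed ones. All naive libraries were above both primed libraries, and the pair of primed libraries stood in the reverse order of GATA2. The log2 fold change was 3.996 ± 0.775 (SE, adjusted p = 0.000768, edgeR's quasi-likelihood test). It was 3.02 against primed EOS alone. Against primed CA-p38 alone, with 0 counts set at 3, even the lowest naive level was at least 21.9-fold higher. HAND2, known from heart and limb, was also higher in naive cells, at 0.644 to 1.01 CPM against 0.0204 and 0.0808 CPM (log2 fold change 3.85 ± 0.72 (SE), adjusted p = 0.000573, edgeR's quasi-likelihood test).

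Since HAND1, GATA2 and CDX2 also mark other tissues, markers of amnion and of mesoderm were counted. Of 8 amnion markers 7 were tested, 4 were higher (ISL1, TFAP2B, WNT6 and BMP4) and 2 lower (IGFBP3 and HEY1), with summed levels of 76.7 to 115 CPM in naive and 76.6 to 91.1 CPM in primed libraries. The naive and primed means were 11.01 and 3.90 CPM for BMP4, 1.29 and 5.09 CPM for IGFBP3, and 0.256 and 6.83 CPM for HEY1. GABRP, the marker that gave most of these sums, was at 64.6 to 96.3 CPM in naive and 62.9 and 72.3 CPM in primed libraries and did not pass (adjusted p = 0.180, edgeR's quasi-likelihood test). Of 8 mesoderm and cardiac markers 7 were tested, 4 were higher (TBXT, TBX6, HAND2 and TBX20) and 1 was lower (TBX5), with sums of 15.2 to 17.9 CPM in naive and 5.38 to 10.7 CPM in primed libraries. The naive and primed means were 4.74 and 1.76 CPM for TBX6, 2.01 and 0.388 CPM for TBXT, and 1.88 and 0.0204 CPM for TBX20, the last of these from at most 2 counts in a primed library. The part of cells with these transcripts in the member values was not tested.

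TEAD4, the DNA-binding partner of YAP1 and WWTR1 that acts at the start of trophectoderm formation, is at chr12:2959330-3040676 on the plus strand. It was at 117.0 and 105.5 CPM in the AICAR libraries, 106.5 CPM in CA-p38 and 102.5 CPM in VPA. The EOS and CA-p38 primed libraries had 64.8 and 81.6 CPM. The naive libraries lay within a narrow range above both primed libraries. The mean was 107.9 ± 6.30 CPM (SD, n = 4) against 73.2 ± 11.9 CPM (SD, n = 2), a 1.47-fold higher level (log2 fold change 0.56 ± 0.12 (SE), adjusted p = 0.00163, edgeR's quasi-likelihood test). TEAD4 was called in each of 17 settings, the comparison above and its alternatives, with log2 fold changes from 0.39 to 0.74.

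The other TEAD genes went the other way. TEAD1 was at 16.3 to 20.6 CPM in naive and 72.8 and 83.5 CPM in the primed ones (log2 fold change -2.11 ± 0.13 (SE), adjusted p = 2.40e-08, edgeR's quasi-likelihood test). TEAD2, at 80.4 to 93.5 against 173 and 169 CPM in primed EOS and primed CA-p38, and TEAD3, at 7.84 to 9.76 against 29.3 and 34.8 CPM, were also lower, with log2 fold changes of -0.999 ± 0.099 (SE) and -1.89 ± 0.15 (SE). Per kilobase of transcript, the summed TEAD level was lower in naive libraries (104 to 116 CPM per kb) than in primed libraries (135 and 146 CPM per kb). TEAD4 made up 58.8%, 59.0%, 59.9% and 57.6% of that sum in the AICAR 1, AICAR 2, CA-p38 and VPA libraries, and 28.03% and 32.74% in primed EOS and primed CA-p38. TEAD4 was the largest share in every naive library, and TEAD2 (53.2% and 59.0% in primed CA-p38 and primed EOS) in both primed libraries. These shares were computed after the levels had been seen and are given without a test.

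**Figure D3:**
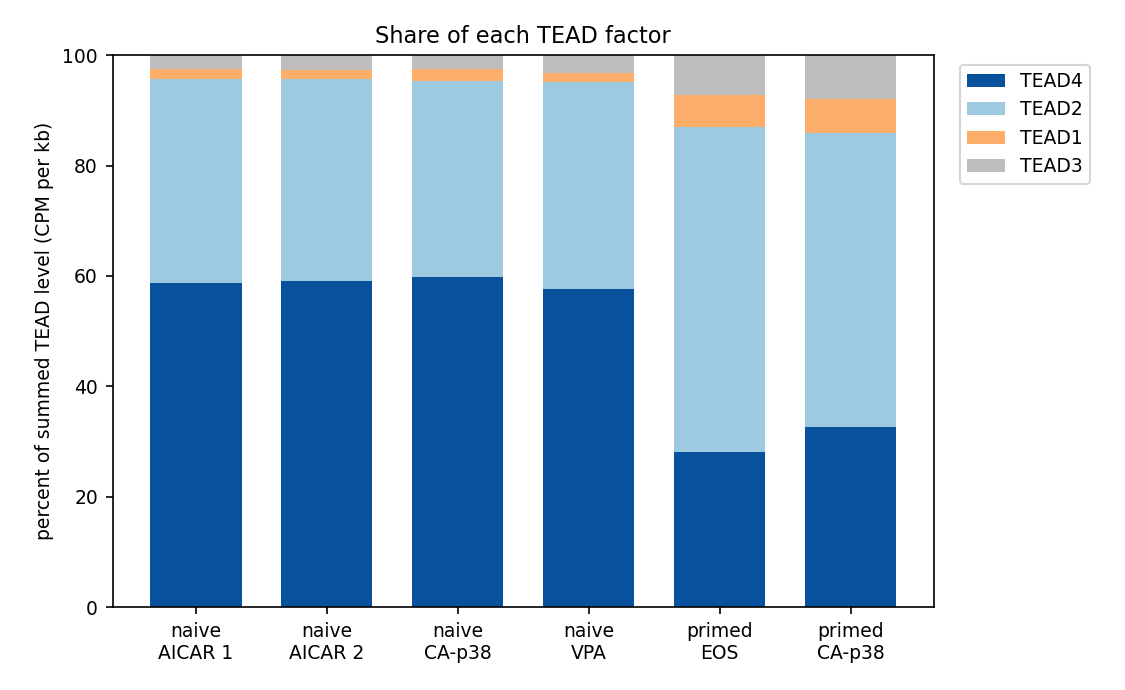
Stacked bars of the percent of the summed TEAD level, in CPM per kb of transcript, that each TEAD factor made up in the 4 naive and 2 primed libraries. TEAD4 filled 57.6% to 59.9% of each naive bar and 28.03% and 32.74% of the primed bars.

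The cofactors were split as well. Of 13 TEAD factors and cofactors 11 were tested, 2 were higher (TEAD4 and WWTR1) and 8 lower (TEAD1, TEAD2, TEAD3, YAP1, VGLL3, VGLL4, CCN2 and ANKRD1), with a median log2 fold change of -1.39. WWTR1, which encodes the coactivator TAZ, rose to 62.2 to 83.7 CPM from 31.6 and 36.1 CPM in primed EOS and primed CA-p38 (log2 fold change 1.10 ± 0.14 (SE), adjusted p = 2.21e-05, edgeR's quasi-likelihood test). YAP1, the related coactivator, was at 60.3 to 76.7 CPM in naive and 171 and 194 CPM in the primed ones (log2 fold change -1.39 ± 0.11 (SE), adjusted p = 3.80e-07, edgeR's quasi-likelihood test). The WWTR1 level per kb was 1.03 to 1.29 times that of YAP1 in naive and 0.198 and 0.199 times in primed libraries. CCN2 and ANKRD1, known target genes of YAP1 and TEAD factors, were lower in naive cells, and CCN1, another known target, did not pass (adjusted p = 0.727, edgeR's quasi-likelihood test).

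VGLL1, a TEAD cofactor of trophoblast, had next to no counts. It had 5 counts in AICAR 2, 1 count in primed EOS and 0 in the other libraries, and was not tested (chrX:136532215-136556807, plus strand). The level of 0.101 CPM in AICAR 2 has an exact Poisson 95% interval of 0.0327 to 0.235 CPM, which covers counting error only. The same interval of a 0 reaches from 0 to 0.0679 CPM in AICAR 1 and to 0.0754 CPM in primed CA-p38. VGLL3 and VGLL4, further TEAD cofactors, were measured at 0.883 to 2.03 and 22.9 to 28.8 CPM in naive libraries and were lower there than in primed libraries. VGLL2 was not tested. TEAD4 and WWTR1 were thus measured at 62.2 CPM or more in every naive library, whereas VGLL1 had 0 counts in 3 of the 4.

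ELF5, an ETS factor of trophoblast stem cells and mammary epithelium, also had few counts (chr11:34478791-34525193, minus strand). It had 6 and 23 counts in AICAR 1 and AICAR 2, 16 in CA-p38 and 1 in VPA, beside 7 and 5 in the EOS and CA-p38 primed libraries. The naive libraries spread from below to above both primed libraries. The log2 fold change was 0.88 ± 1.05 (SE) and did not pass (adjusted p = 0.506, edgeR's quasi-likelihood test). The naive libraries differed among themselves beyond counting error, with exact Poisson 95% intervals of 0.294 to 0.695 CPM in AICAR 2 and up to 0.106 CPM in VPA. Other factors of the family had more counts and were higher in naive cells. ELF3, which acts in simple epithelia, was at 156 to 211 CPM in naive and 1.78 and 2.04 CPM in the primed ones (log2 fold change 6.60 ± 0.19 (SE), adjusted p = 3.65e-11, edgeR's quasi-likelihood test). ELF1, ELF2 and ELF4, which are widely expressed, were higher by log2 fold changes of 1.69, 1.11 and 0.97, and EHF had too few counts to be tested.

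The keratins KRT8 and KRT18, which pair into the filaments of simple epithelia, had the highest mean levels per kb of the members and were the ones that were lower in naive cells. KRT8 (chr12:52897187-52949954, minus strand) was at 278.1, 293.5, 213.7 and 232.7 CPM in the AICAR 1, AICAR 2, CA-p38 and VPA libraries and at 783.1 and 871.6 CPM in primed EOS and primed CA-p38. KRT18 (chr12:52948871-52952906, plus strand) was at 132.4, 136.1, 98.8 and 91.1 CPM in the naive libraries and at 510.8 and 642.0 CPM in the primed ones. In both genes the AICAR libraries were highest among the naive, and every naive library was far below both primed libraries. KRT8 was 3.25-fold lower in naive cells (log2 fold change -1.70 ± 0.12 (SE), adjusted p = 1.15e-07, edgeR's quasi-likelihood test). KRT18 was 5.03-fold lower (log2 fold change -2.33 ± 0.16 (SE), adjusted p = 6.08e-08, edgeR's quasi-likelihood test). Both were called in the same 17 settings, from -1.79 to -1.56 for KRT8 and from -2.499 to -2.105 for KRT18.

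The 2 partners did not fall by the same factor. Per kb, KRT8 was 1.66, 1.71, 1.71 and 2.02 times KRT18 in the AICAR 1, AICAR 2, CA-p38 and VPA libraries and 1.21 and 1.08 times in primed EOS and primed CA-p38. KRT19, a further type I keratin of simple epithelia, was also lower, at 36.6 to 61.2 against 128 and 137 CPM (log2 fold change -1.53 ± 0.16 (SE), adjusted p = 4.98e-06, edgeR's quasi-likelihood test). The genes of KRT8 and KRT18 overlap on opposite strands over 1084 bases, although their canonical transcripts do not, so reads of outlying exons could have been mixed. Both have many processed pseudogenes, and reads that fit a gene and a pseudogene could have been left out or split. The 51 names of KRT8 pseudogenes held 5.13% to 6.18% as many counts as KRT8 in naive and 1.59% to 2.33% in primed libraries, and the 67 names of KRT18 pseudogenes held 2.08% to 2.64% and 0.599% to 0.981%. With pseudogene counts added, primed levels were 3.13 times naive levels for KRT8 and 4.95 times for KRT18.

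KRT7, a keratin of simple and glandular epithelia and a common marker of trophoblast, went opposite to its relatives. It was at 4.71 and 5.03 CPM in the AICAR libraries, 9.28 CPM in CA-p38 and 9.82 CPM in VPA, against 3.40 and 3.44 CPM in primed EOS and primed CA-p38 (chr12:52232520-52252186, plus strand). Every naive library was above both primed libraries, with the AICAR libraries closest to them. The log2 fold change was 1.08 ± 0.33 (SE, adjusted p = 0.0155, edgeR's quasi-likelihood test). By edgeR's quasi-likelihood test the call was lost when primed EOS was left out (log2 fold change 1.06, adjusted p = 0.0814), when primed CA-p38 was left out (1.09, adjusted p = 0.0742) and within the EOS line (0.93, adjusted p = 0.149). KRT7 made up 1.01% to 2.62% of the summed KRT7, KRT8, KRT18 and KRT19 level per kb in naive and 0.203% to 0.234% in primed libraries. The antisense gene KRT7-AS overlaps it, at 0.0201 to 0.363 CPM in naive and 0.0204 and 0.0606 CPM in primed libraries.

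**Figure D4:**
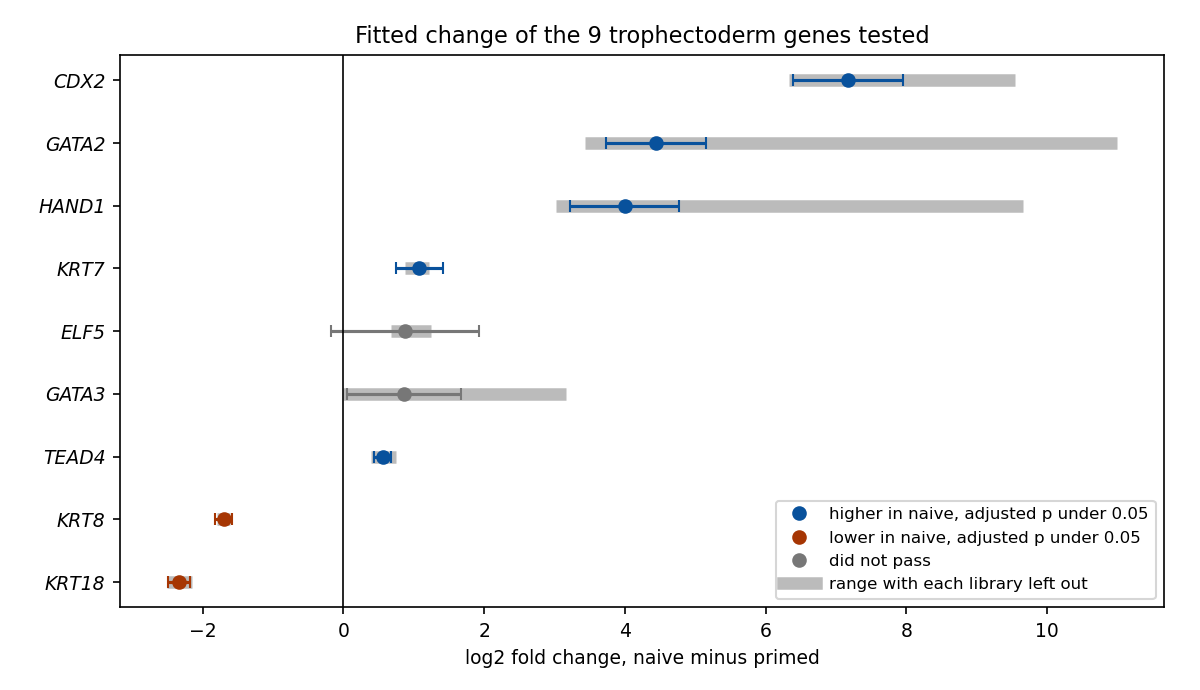
Fitted log2 fold change of naive minus primed for the 9 trophectoderm genes tested, with standard errors as bars and, as grey bands, the range of the estimate when each of the 6 libraries was left out. KRT18 and KRT8 lie below 0 and GATA2, CDX2 and HAND1 above 3 with wide bands, while the band of GATA3 reaches from 0.00 to 3.17.

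Within the naive state the members did not all take the same level. Both AICAR libraries were above the CA-p38 and VPA libraries in GATA2, GATA3, HAND1, KRT8 and KRT18 and below them in KRT7, that is in 5 and 1 of 9 members tested, beside 15.9% and 15.8% of all genes tested. The ratio of the AICAR mean to the mean of the other naive libraries was 4.35 for GATA3, 1.60 for HAND1, 1.41 for KRT18, 1.28 for KRT8 and 1.21 for GATA2, and its inverse was 1.96 for KRT7. Each other method had 1 library, so these orders were not tested, and method cannot be told apart from line and passage number. Fibroblast markers were looked at in the same libraries because the study's methods keep naive cells on feeders. The feeders were mouse cells and reads were mapped to human transcripts, so these values cannot measure feeder RNA directly. Of 8 such markers none was called higher, 5 were lower (COL1A1, COL1A2, POSTN, THY1 and PDGFRB) and 3 did not pass. In 1 marker every naive library lay above both primed libraries. The sums were 31.6 to 73.6 CPM in naive and 666 to 698 CPM in primed libraries, the latter mostly THY1. The paper uses THY1 as a marker of mesoderm, so these sums are not specific to fibroblasts. THY1 was at 0.872 ± 0.194 CPM (SD, n = 4) against 482 ± 35.0 CPM (SD, n = 2), COL1A2 at a mean of 24.1 against 117 CPM and COL1A1 at 15.04 against 59.8 CPM. Among naive libraries CA-p38 had the highest sum and AICAR 1 the lowest, and the part of feeder RNA in the member values was not tested.

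Ordered by mean level per kb in naive cells, the members ran from KRT8 (143 CPM per kb) over KRT18 (81.1), TEAD4 (63.1), KRT7 (4.44), GATA2 (1.46), HAND1 (1.16), CDX2 (0.527) and GATA3 (0.475) to ELF5 (0.0981) and VGLL1 (0.0220). Neighbours in this order whose library ranges overlapped were KRT18 and TEAD4, GATA2 and HAND1, CDX2 and GATA3, GATA3 and ELF5, and ELF5 and VGLL1. In primed cells the order began with KRT8 (464 CPM per kb), KRT18 (408), TEAD4 (42.8) and KRT7 (2.10), and no other member was above GATA3 (0.262). The naive means per kb of GATA2, HAND1 and CDX2 were below those of all 3 keratins and of TEAD4, least so for KRT7.

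Other genes of trophectoderm and trophoblast were then counted from lists. Of 20 other regulators 19 were tested, 13 were higher and 4 lower (EOMES, ETS2, ID2 and GRHL2), with a median log2 fold change of 3.32. Beside this stand 26.01% higher and 27.04% lower of all genes tested. TFAP2C, an AP-2 factor of trophoblast and germ cells, was at 104 to 121 CPM in naive and 4.54 and 5.72 CPM in the primed ones (log2 fold change 4.43 ± 0.16 (SE), adjusted p = 2.07e-10, edgeR's quasi-likelihood test). TFCP2L1, a factor of naive pluripotency and of epithelia, was at 103 to 126 CPM against 4.72 and 4.93 CPM (log2 fold change 4.63 ± 0.15 (SE), adjusted p = 1.25e-10, edgeR's quasi-likelihood test). ARID3A, a DNA-binding protein linked to trophectoderm, was at 141 to 175 CPM against 84.4 and 85.4 CPM (log2 fold change 0.91 ± 0.11 (SE), adjusted p = 1.67e-05, edgeR's quasi-likelihood test). The other higher genes were TFAP2A, MSX2, DLX3, DLX5, GCM1, OVOL1, PPARG, GRHL1, SP6 and TBX3, many of them factors of the placenta. The paper counts TBX3 among genes that induce the naive state, so this list is not specific to trophoblast.

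Surface and structural genes were divided. Of 20 such genes of trophectoderm and cytotrophoblast 15 were tested, 4 were higher (LRP2, S100P and PLAC8 among them) and 8 lower (KRT19, ITGA6, EGFR, ITGA2, DAB2, PEG10, ABCG2 and PLAC1), with a median log2 fold change of -0.63. ITGA6, an integrin of cytotrophoblast and of primed cells, was at 38.2 to 46.8 CPM in naive and 225 and 239 CPM in the primed ones (log2 fold change -2.49 ± 0.11 (SE), adjusted p = 1.05e-09, edgeR's quasi-likelihood test). PEG10, an imprinted gene of placenta, was at 37.97 to 57.4 against 204 and 216 CPM (log2 fold change -2.18 ± 0.14 (SE), adjusted p = 4.19e-08, edgeR's quasi-likelihood test).

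Genes of later trophoblast were mostly low. Of 20 syncytiotrophoblast genes 13 had too few counts to be tested, 2 were higher (ERVW-1 and ERVV-2), 1 was lower (SDC1) and 4 did not pass. ERVW-1, an endogenous retroviral envelope gene that encodes a fusion protein of syncytiotrophoblast, was at 63.0 to 87.8 CPM in naive and 2.74 and 2.79 CPM in the primed ones (log2 fold change 4.80 ± 0.19 (SE), adjusted p = 4.87e-10, edgeR's quasi-likelihood test). SDC1, a proteoglycan of the syncytial surface, was at 1.34 to 2.81 CPM in naive and 72.6 and 72.9 CPM in the primed ones (log2 fold change -4.97 ± 0.22 (SE), adjusted p = 1.26e-09, edgeR's quasi-likelihood test). CGA, which encodes the shared subunit of chorionic gonadotropin, was at 0 to 0.322 CPM in naive libraries and did not pass (adjusted p = 0.812, edgeR's quasi-likelihood test). ERVV-2, a further retroviral envelope gene, had a naive mean of 2.10 CPM and a primed mean of 0.468 CPM. Of 10 extravillous trophoblast genes 9 were tested, 3 were higher (HLA-G, NOTUM and DIO2) and 5 lower (ITGA1, ITGA5, MMP2, FN1 and ADAM12), and LAIR2 had 0 counts in every library. Naive and primed means were 62.2 and 270 CPM for FN1, 16.3 and 129 CPM for MMP2, and 2.74 and 51.9 CPM for ITGA5.

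Neural and pluripotency genes complete the lists. Of 8 neural markers 7 were tested, 1 was higher, 4 were lower (MAP2, NES, DCX and OTX2) and 2 did not pass. Naive and primed means were 89.9 and 467 CPM for NES, 11.1 and 24.5 CPM for OTX2, and 0.299 and 7.30 CPM for DCX. Of 5 pluripotency genes NANOG was higher (230 against 91.4 CPM) and SOX2 (129 against 235 CPM), SALL4 and LIN28A (350 against 1161 CPM) were lower, whereas POU5F1 did not pass. All 6 naive state genes were higher, with DNMT3L, DPPA5 and SUSD2 at naive means of 1312, 622 and 543 CPM. The naive cells had been sorted for SUSD2, so its higher level was selected for. All 5 primed state genes were lower, with CD24, SFRP2 and DUSP6 at naive means of 28.9, 0.340 and 0.168 CPM.

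**Figure D5:**
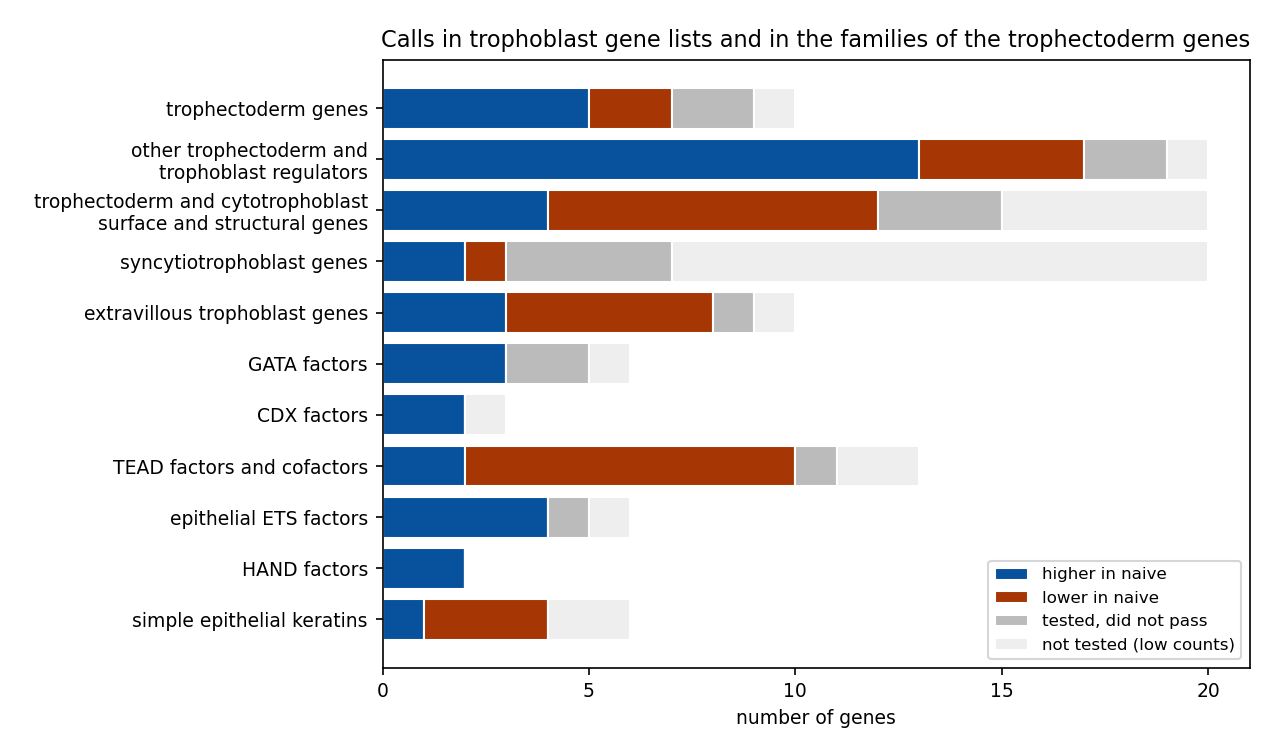
Number of genes higher in naive, lower in naive, tested without passing and not tested, for the trophectoderm genes, for 4 lists of other trophoblast genes and for 6 gene families. The bar of other regulators holds 13 higher and 4 lower genes, whereas that of TEAD factors and cofactors holds 2 higher and 8 lower.

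For the 4 members with a mean of at least 5 CPM, the genes with the most similar profile over the 6 libraries were sought among 12603 genes by Euclidean distance of centred log2(CPM + 0.5). Nearest to TEAD4 were CIAO1 (distance 0.0803), GTF2B and WDR20, nearest to KRT7 were OCLN (0.421), STK17B and SH3YL1, nearest to KRT8 were VASP (0.157), PELO and ACAT2, and nearest to KRT18 were KIF5C (0.170), CHRNA5 and RASGRF2. No member was among the 3 nearest genes of another. The profiles were common ones, since 5354 genes lay within a distance of 1 of TEAD4, 1258 of KRT7, 1619 of KRT8 and 605 of KRT18.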

How the data were processed

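The deposited values are raw read counts for each gene. Per the labels and the study's methods, RNA was polyA-selected, reads were trimmed with Trim Galore 0.4.4 and cutadapt 1.15 and mapped to human transcript sequences of GRCh38, and read alignments of mapping quality 1 or more were added up by gene. Reads that fit several copies or isoforms could thus have been left out or split. The 23 columns of other studies in the same table were not used. The 26 spike-in rows, with at most 1 count in a library, were left out.

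From these counts, identifiers that share a name were summed (61196 identifiers, 48183 names). Naive and primed libraries (4 against 2, no covariates) were compared with edgeR 4.0.16 (glmQLFTest after TMM scaling and a filterByExpr filter on the states). The p-values of all 26497 genes tested were adjusted by Benjamini-Hochberg, and calls were made at 0.05. This design was used because the methods name a normalization but no test. The edgeR, DESeq2 and limma-voom tests were each tested on simulated counts with known changes in a small part of the genes. Those simulations do not cover changes as widespread as the ones called here. The alternatives were DESeq2 size factors, library totals, DESeq2 1.42.0, limma-voom 3.58.1, other count filters, the parental line as a block, summed AICAR libraries, separate identifiers, the EOS line alone and each library left out. A primed group with at most 3 counts in every library was set at 3 counts per library, and the fold is then a lower bound. Intervals of counts are exact Poisson 95% intervals. Each SE of a log2 fold change is its absolute value divided by the square root of the quasi-likelihood F statistic. It is thus an approximation, least sure where primed counts were near 0. Lengths are those of canonical transcripts in GENCODE release 44. Depth was 46823699 to 54277064 counts per library.

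The members and gene lists were chosen with earlier results of these data known. Named beside every member were genes of the members' families, from each list the 3 genes with the highest mean CPM among those called, pseudogenes of KRT8 and KRT18, and the 3 genes nearest in profile. Genes outside this rule, among them GABRP, CGA, CCN1, EOMES, PLAC1 and S100P, were chosen after their values were seen. Single results for 2 genes of these lists are not reported here.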

Additional observations from a re-analysis of the deposited data

Results flagged for a closer look

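GATA3 moved in opposite directions in the parental lines. On log2(CPM + 0.5), naive minus primed was 1.55 on average in the EOS line, where all 3 naive libraries were above the primed library, and -0.69 in the CA-p38 EOS line, where the single naive library was below it. The CA-p38 line had 1 library in each state, so the difference between the lines was not tested.

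VGLL1 had 5 counts in AICAR 2 and 0 counts in the other 3 naive libraries, so that the gap of AICAR 2 to the nearest was the whole range of the group (a ratio of 1.0). With 3 libraries at 0 this ratio is 1.0 for any count in the fourth. The exact Poisson 95% intervals of AICAR 2 (0.0327 to 0.235 CPM) and AICAR 1 (0 to 0.0679 CPM) overlapped, and the difference was not tested.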

How the results depend on the processing

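The number of trophectoderm genes called was 7 as reported and fell to 4 with a minimum of 10 counts per library, because only 4 members (TEAD4, KRT7, KRT8 and KRT18) then remained to be tested. With each library left out in turn it was 6 to 7, the number of all genes called was 11311 to 13677 (14058 with all libraries) and the number called in the other gene lists 89 to 95 (96 with all libraries). Without primed EOS the call of KRT7 was lost. Without primed CA-p38, and within the EOS line, 7 members were called, but KRT7 was lost and GATA3 gained. No member's log2 fold change changed sign under any alternative run. The GATA factors called were 3 with all libraries and 5 without primed CA-p38 or within the EOS line, and the endoderm and hypoblast markers called fell from 5 to 3 without primed EOS.

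With library totals in place of TMM, 7620 genes were higher and 6498 lower, against 6893 and 7165, so the larger share turned from lower to higher. In the other gene lists 46 genes were higher and 50 lower, against 47 and 46 with library totals or without CA-p38 naive. More of them were also higher than lower with no count filter (50 and 49), without primed EOS (45 and 44), without primed CA-p38 (46 and 44) and within the EOS line (46 and 41). In the runs that left out a primed library or kept the EOS line, 1 primed library remained and was assumed to vary like the others. The labels number only the AICAR libraries, so no replicate numbers pair the states. The fit with the parental line as a block, which matches naive and primed libraries by line, changed no call of a member.

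ELF5 and VGLL1 had at most 23 and 5 counts in a library, and ELF5 also varied between naive libraries. The log2 fold changes of GATA2, CDX2 and HAND1 depended on primed counts of 0 to 22, and their size is uncertain.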

Other observations

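Pseudogene counts of KRT8 and KRT18 differed less between the states than those of the parent genes. The 51 KRT8 pseudogene names summed to 775, 886, 667 and 680 counts in the AICAR 1, AICAR 2, CA-p38 and VPA libraries and to 901 and 678 counts in primed EOS and primed CA-p38, so that the states overlapped. The 67 KRT18 pseudogene names summed to 189, 174, 104 and 126 counts in the same naive libraries and to 248 and 188 counts in the primed ones. In these raw counts, 3 of 4 naive libraries were below both primed libraries. AICAR 1, the exception, was the largest library, and scaled to library size it was below both as well. KRT8P12 alone had 250 to 377 counts in naive and 402 and 294 counts in primed libraries. KRT8P46 had 79 to 88 counts in naive and 31 and 8 counts in primed libraries, and KRT8P50 17 to 44 counts against 1 and 3. These pseudogenes were singled out after their counts were seen, and how many of the reads came from KRT8 itself was not tested.

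PLAC1, a placental gene on the trophectoderm surface list, had 1 count in AICAR 1 and 0 in the other naive libraries, against 25 and 17 counts in primed EOS and primed CA-p38. S100P, from the same list, had the reverse pattern, at 4.61 to 6.46 CPM in naive libraries against 1 and 0 counts in the primed ones. Both were singled out after their values were seen.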
